A study of Mus musculus with 504 samples.

Results

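The 9 genes followed here mark the luminal cells of the mammary gland: Elf5, Kit, Cd14 and Aldh1a3, used as marks of luminal progenitors, Gata3 and Prlr, used by luminal cells of both branches, and Foxa1, Esr1 and Pgr, used by hormone-sensing cells. They were chosen by name, with earlier results of these data known, and 9 of 9 were found among the 55450 genes of the count table. They were followed in 335 libraries that passed quality control, each made from a pool of 5 sorted cells, and in 43 sums of those libraries, 1 for each animal and population.

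The luminal layer of the mammary gland holds secretory cells and their progenitors beside cells that sense steroid hormones. ELF5, an ETS-family transcription factor, drives alveolar fate downstream of the prolactin receptor and STAT5, while the hormone-sensing branch relies on the estrogen receptor and its pioneer factor FOXA1. GATA3 is needed to keep luminal identity as such. In tumours of the MMTV-PyMT model these genes serve to place tumour cells along the luminal hierarchy and to follow loss of epithelial identity.

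Tumour cells came from mice of 2 lines, each with 5 animals. All animals carried MMTV-PyMT, which expresses the polyoma middle T oncogene under a mammary tumour virus promoter, MMTV-Flpo, which makes Flp recombinase under the same promoter, and the RC::FrePe reporter, in which Flp turns on mCherry and Cre then replaces mCherry with GFP for good. The lines differed in the driver of the tamoxifen-activated Cre: Cdh2-CreERT2 (animals named Cdh) used the N-cadherin gene, taken as a mark of full epithelial-to-mesenchymal transition (EMT), and Tnc-CreERT2 (animals named TENA) used the tenascin C gene, taken as a mark of partial EMT. Tamoxifen (2 mg per dose, 2 doses per week) was given to every animal between week 9 and sacrifice in week 13 to 14, so no untreated group was compared. Some labels call the source cell lines derived from tumours, whereas the growth protocol has the cells sorted from tumours directly.

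The sort used mCherry, GFP and EpCAM, an adhesion molecule that epithelia carry on their surface. In TENA animals the double-positive population was P22 (EpCAM high), the GFP-positive ones were P15 (EpCAM negative), P10 (EpCAM low) and, with medium EpCAM, P16 and the GFP-high P09, and the mCherry-positive ones were P05 (EpCAM negative), P17 (EpCAM high) and P18 (EpCAM high, mCherry high). In Cdh animals P15, P05 and P18 were measured. The series text lists the gate of P09 under another number, so P09 is less certain than the rest. P18 is the population against which the others are set.

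Totals of the libraries ranged from 313655 to 27849014 counts, and the 17 empty wells held 0 reads of the 9 genes. Of the 43 sums, 2 rest on 1 library, P15 of TENA2524 and P16 of TENA2483. Krt8, a keratin of luminal cells, reached 10 CPM (counts per 1000000 counts of the library) in every library of P22, P09, P17 and P18, in 25 of 26 of P16, in 18 of 25 of P10, in 10 of 32 of TENA P05 and in 4 of 16 of Cdh P15. It did so in 0 of 12 libraries of TENA P15 and 0 of 10 of Cdh P05. Ptprc (CD45), which defines leukocytes, reached 10 CPM in 12 of 12 libraries of TENA P15, 7 of 32 of TENA P05, 4 of 25 of TENA P10 and 2 of 10 of Cdh P05, and in 0 of 16 of Cdh P15. In these pools, fewer cells of a type and less RNA per cell cannot be told apart.

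Levels below are CPM after scaling by TMM, a normalization factor per sum, and are given for each animal or as mean ± SD over animals. Fold changes are log2 values ± SE from edgeR's quasi-likelihood test with the animal as a block, and a gene is called at an adjusted p below 0.05 over all genes tested. The test gives no SE, so it was worked back as the absolute fold change divided by the square root of the F statistic. Over 11 comparisons and 97 tests, edgeR called 0 of the 9 genes in any comparison, 8 tests having an unadjusted p below 0.05. DESeq2 on the same sums made 7 calls, all in comparisons that involve P15. Among all genes with an adjusted p, DESeq2 called 4880 of 31149 in TENA P15 and 1893 of 24602 in Cdh P15, each against P18. In the difference of that contrast between the lines it called 3338 of 28530. In the same 3 comparisons edgeR called 246, 0 and 3 of 33768 genes. The results are therefore mostly levels and their spread, and a p that misses the threshold does not show that levels were alike. Cases below where every animal moved the same way were picked from these tests. The share of all genes doing so was not computed, so they are descriptions only. Kit, Cd14 and Gata3 were likewise lower in P17 than in P18 in 3 of 3 animals.

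The start regions of 3 genes are shown first because they stood differently in Cdh P15 cells, Elf5 near 0, Gata3 within the range of P18 and Esr1 above every P18 sum. Sequences are from RefSeq on GRCm38.p6, 250 bases before to 50 after a start, and 7 of the 9 genes had an entry, with 12 starts. Elf5 (chromosome 2, 103411688 to 103450989, plus strand) has 2 starts in the table, Gata3 (chromosome 2, 9857078 to 9890034, minus strand) has 1, and Esr1 (chromosome 10, 4611593 to 5005614, plus strand) has 2. Capitals mark matches on either strand to CAGGTG (the E-box read by Snail and Zeb repressors), TTCNNNGAA (STAT5), TGTTTAC (forkhead factors such as FOXA1) with its variant TGTTTGC, and, with no match in these windows, the GATA factor motif AGATAA, the nuclear receptor motif AGGTCA and the ETS factor motif ACCGGAAG.
Elf5 first start, chr2:103411848-103412147, plus strand: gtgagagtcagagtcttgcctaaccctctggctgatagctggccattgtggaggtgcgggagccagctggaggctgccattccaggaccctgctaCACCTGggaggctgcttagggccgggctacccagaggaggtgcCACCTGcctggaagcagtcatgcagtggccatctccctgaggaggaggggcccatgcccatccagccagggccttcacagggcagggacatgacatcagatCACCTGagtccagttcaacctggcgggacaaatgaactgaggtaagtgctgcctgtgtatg
Elf5 second start, chr2:103423818-103424117, plus strand: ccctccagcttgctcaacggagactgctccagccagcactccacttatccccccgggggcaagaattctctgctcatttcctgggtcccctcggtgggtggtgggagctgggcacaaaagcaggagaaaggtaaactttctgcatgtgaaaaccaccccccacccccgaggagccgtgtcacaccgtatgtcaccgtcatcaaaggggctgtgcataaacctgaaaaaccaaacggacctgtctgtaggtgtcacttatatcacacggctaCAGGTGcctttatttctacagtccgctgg
Gata3 start, chr2:9878551-9878850, minus strand: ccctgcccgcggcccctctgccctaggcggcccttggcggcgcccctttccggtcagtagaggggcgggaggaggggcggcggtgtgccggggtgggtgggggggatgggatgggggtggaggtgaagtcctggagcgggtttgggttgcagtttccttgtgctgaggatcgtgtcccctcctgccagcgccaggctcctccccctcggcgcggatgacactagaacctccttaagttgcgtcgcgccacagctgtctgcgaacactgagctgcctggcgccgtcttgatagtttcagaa
Esr1 first start, chr10:4611739-4612038, plus strand: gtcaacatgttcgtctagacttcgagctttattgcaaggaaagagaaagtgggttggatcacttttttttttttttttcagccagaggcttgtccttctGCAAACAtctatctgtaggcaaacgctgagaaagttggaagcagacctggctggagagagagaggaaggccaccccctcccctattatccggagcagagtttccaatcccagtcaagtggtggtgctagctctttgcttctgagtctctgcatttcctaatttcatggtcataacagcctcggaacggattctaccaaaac
Esr1 second start, chr10:4709908-4710207, plus strand: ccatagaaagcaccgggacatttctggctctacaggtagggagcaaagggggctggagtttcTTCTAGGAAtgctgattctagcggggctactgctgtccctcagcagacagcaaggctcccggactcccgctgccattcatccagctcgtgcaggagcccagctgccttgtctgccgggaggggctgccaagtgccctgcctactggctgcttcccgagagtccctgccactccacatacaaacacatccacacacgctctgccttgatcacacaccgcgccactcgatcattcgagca

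The window of the first Elf5 start holds 3 E-boxes, beginning at -155, -112 and -11 bases from the start, and that of the second start holds 1. At least 1 E-box is found in 20.2% of the 32851 promoter windows of the table and 3 or more in 0.365%. Of the other members, Foxa1, Pgr and 1 of the 3 Prlr windows also hold 1 E-box each. The Gata3 window and both Kit windows hold 0 matches to any of the motifs. The first Esr1 window holds 1 forkhead match (8.48% of all windows hold 1 or more) and the second holds 1 STAT5 match (8.3% of all windows). The motifs do not overlap each other here. A match in such a window is a description of its letters, and these data hold no measure of binding. The Elf5, Gata3 and Esr1 windows were chosen by levels in Cdh P15, and a link of motifs to levels was not tested.

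Elf5 was a low transcript of the EpCAM-expressing populations, and at 0 or close to it in both P15 populations. It averaged 10.1 ± 4.74 CPM in P22, 19.5 ± 13.9 in P09, 29.5 ± 29.1 in P16, 13.4 ± 15.4 in P10 and 10.7 ± 11.05 in P17, against 10.6 ± 3.67 in TENA P18 (SD, n = 5, 5, 4, 4, 3 and 5 animals). In single pools it reached 1 CPM in 96.4% of the 55 TENA P18 pools but 10 CPM in 43.6% of them (exact 95% interval 30.3 to 57.7%, for counting error only). The populations from P22 to P17 overlapped P18 and one another, so their order does not exceed the spread of the animals. P09 stood above P18 in 5 of 5 animals, with a fitted difference of 0.77 ± 1.42 (edgeR, adjusted p = 1).

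In TENA P15 Elf5 had 0, 0 and 0 CPM in TENA2483, TENA2517 and TENA2524, against 8.90, 14.6 and 12.4 CPM in P18 of the same animals and 5.17 and 12.0 in TENA2462 and TENA2560. The groups did not overlap, as for 17.2% of the genes tested, which were lower in P15. Pooled over the group, Elf5 was at least 156-fold lower than in P18, taking 3 counts over the P15 group (a log2 ratio of -7.29). This bound covers counting error only, and leaves out the spread between pools and animals. edgeR's fitted value of -11.47 ± 3.42, which depends on the prior count, had an adjusted p of 0.108 and an unadjusted p of 0.00236. Fitted without the animal block, edgeR gave an adjusted p of 0.0454, and DESeq2 gave 0.000734. All 12 of these pools held Ptprc and 0 of 12 held Krt8 at 10 CPM, and the part of leukocyte RNA in this difference was not tested.

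In Cdh P15, where 0 of 16 pools held Ptprc at 10 CPM, Elf5 was also near 0. It had 0.0828 CPM in Cdh1624 (6 reads in 3 of its 7 pools), 0 in Cdh1654 and 0 in Cdh1739, against 106, 18.0 and 8.08 CPM in P18 of the same animals and 9.58 and 19.3 CPM in Cdh1725 and Cdh1803. All 3 sums lay below all 5 sums of P18, a pattern that 1.28% of the genes tested shared. The fitted difference was -10.82 ± 2.83 (edgeR, unadjusted p = 0.000697, adjusted p = 0.49), and DESeq2 gave an adjusted p of 7.95e-07. The P18 sum of Cdh1624 holds 2 libraries, and 95.3% of its Elf5 reads are in pool 8. With that sum the fitted log2 difference of Cdh from TENA animals in P18 was 1.66 ± 0.81 (edgeR, adjusted p = 1), and without Cdh1624 it was 0.26 ± 0.38.

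The mCherry-positive P05 cells, also EpCAM negative, kept Elf5 in single pools. The 5 TENA sums held 37.8, 0.0385, 14.0, 0.130 and 0 CPM (TENA2462, TENA2483, TENA2517, TENA2524 and TENA2560). Of the reads in TENA2462, 97.5% came from pool 12, and all reads of TENA2517 came from pool 5. Both Elf5-positive pools were among the 4 that held Krt8 and neither Ptprc nor Col1a1, the collagen gene that marks fibroblasts. In Cdh P05 (1 animal, 10 pools) Elf5 was 0.

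**Figure D1:**
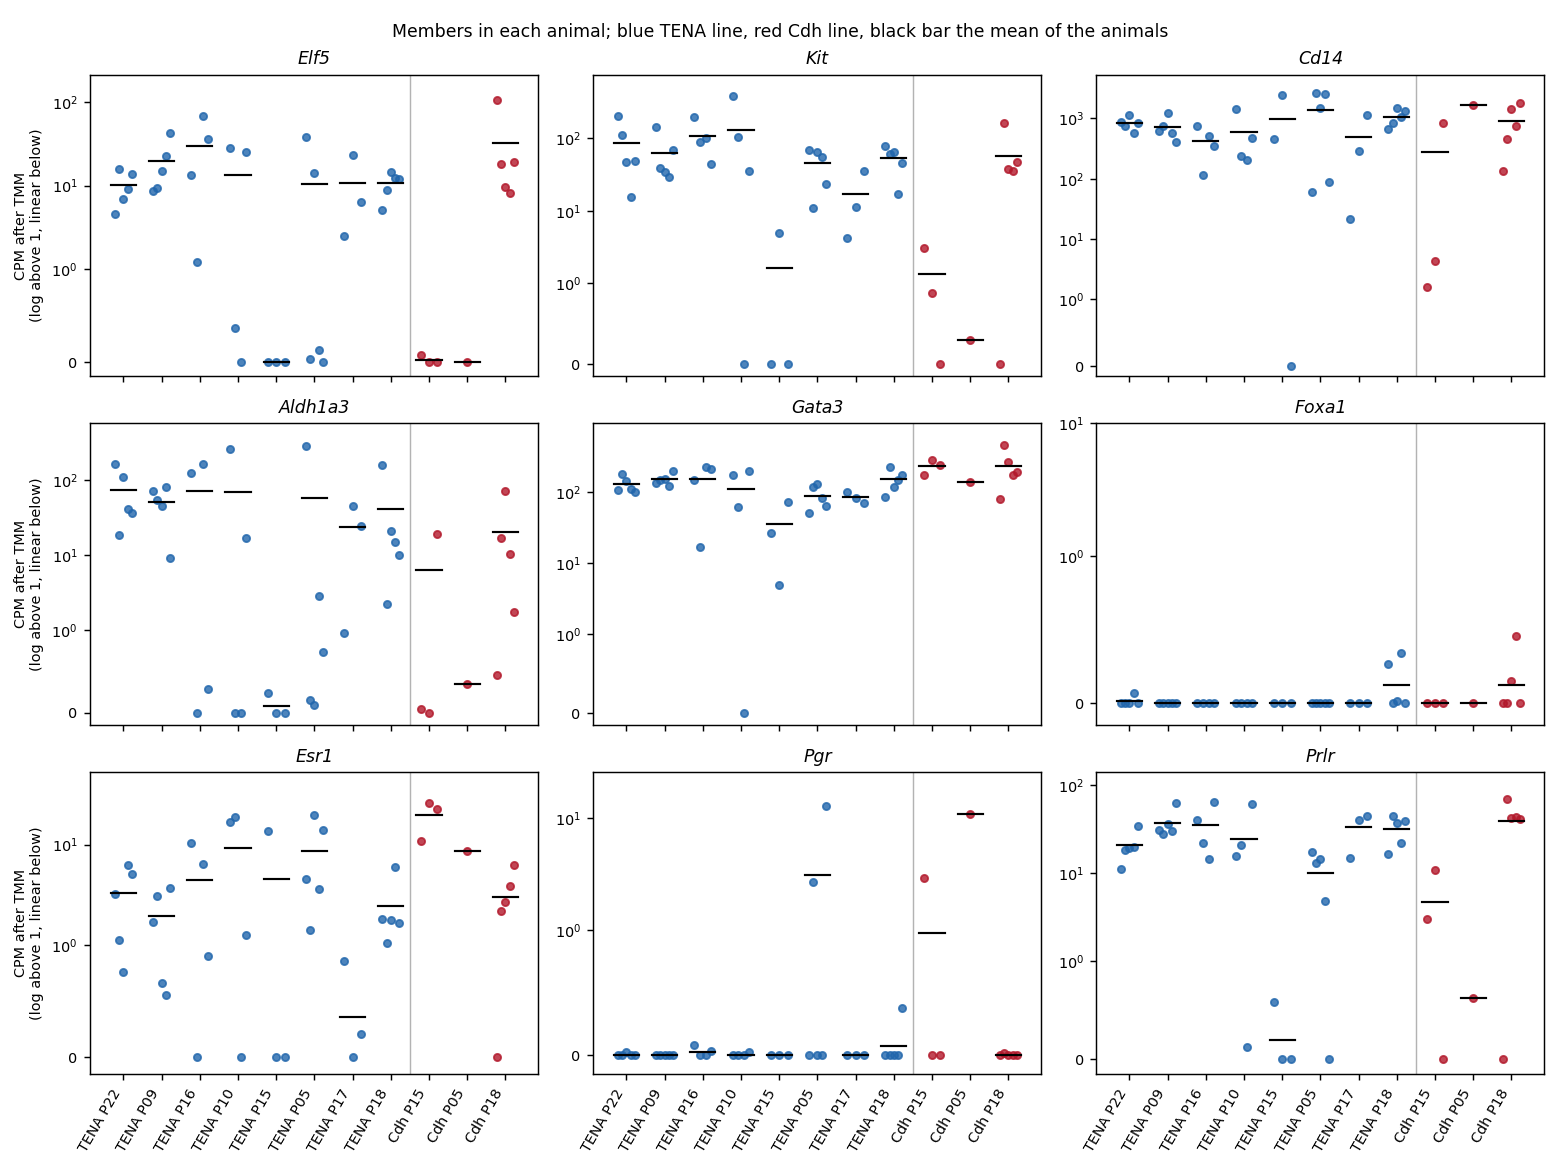
CPM of the 9 genes in each sum of an animal and population (points; blue TENA, red Cdh), with the mean as a bar, on an axis that is logarithmic above 1 CPM and linear below. Elf5, Kit, Aldh1a3 and Prlr sit near 0 in TENA P15, Gata3 in Cdh P15 lies between 176 and 282 CPM, and Foxa1 stays below 0.5 CPM throughout.

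Kit, the receptor for stem cell factor and a surface mark of luminal progenitors, was found in 81.8% of TENA P18 pools and 86% of Cdh P18 pools at 10 CPM or more. TENA animals had 203, 111, 46.0, 15.5 and 48.7 CPM in P22 and 76.6, 60.1, 65.1, 16.9 and 45.2 CPM in P18 (TENA2462, TENA2483, TENA2517, TENA2524, TENA2560). P16 exceeded P18 in 4 of 4 animals (197, 88.9, 98.6 and 43.8 CPM in TENA2462, TENA2483, TENA2517 and TENA2524), with overlap between the groups and a fitted difference of 0.92 ± 1.30 (edgeR, adjusted p = 1).

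In TENA P15 Kit had 0, 4.88 and 0 CPM, below every P18 animal, with a fitted difference of -4.52 ± 1.85 (edgeR, adjusted p = 0.236, DESeq2 0.0381). In Cdh P15 it had 3.11, 0.883 and 0 CPM (Cdh1624, Cdh1654 and Cdh1739), against 0, 159 and 35.3 CPM in P18 of those animals and 37.5 and 47.1 in Cdh1725 and Cdh1803. The groups overlap only through the 2-library P18 sum of Cdh1624, which held no Kit read. The fitted difference was -7.17 ± 3.42 (edgeR, unadjusted p = 0.0452, adjusted p = 1), and it ranged from -9.63 to -2.32 over the alternatives tried. DESeq2 called Kit here with an adjusted p of 9.92e-05. The EpCAM-negative P05 cells of TENA animals kept Kit, at 44.7 ± 26.1 CPM (SD, n = 5), with 8 of 32 pools at 10 CPM or more. Their fitted difference from P18 was -0.031 ± 1.255 (edgeR). Cdh P05 (1 animal) had 0.297 CPM. EpCAM-low P10 averaged 128 ± 169 CPM (SD, n = 4), from 0 to 373 CPM.

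Aldh1a3, an enzyme that makes retinoic acid and marks progenitors in sorting assays, was highest in TENA2462 among the animals of P22, P10, P05 and P18. TENA2462 had 167 CPM in P22, 71.1 in P09, 127 in P16, 264 in P10, 288 in P05 and 159 in P18, whereas the other 4 animals stayed between 2.21 and 20.8 CPM in P18. In P18 of TENA2462 the gene was held by 12 of 12 pools, but in P05 of this animal 74.8% of its reads came from pool 6. Aldh1a3 was higher in P22 than in P18 in 5 of 5 animals (167, 18.5, 111, 41.8 and 36.8 CPM in P22 against 159, 2.21, 20.8, 15.1 and 9.96 CPM in P18), and 66% of P22 pools held it against 41.8% of P18 pools. The groups overlapped and the fitted difference was 2.10 ± 1.61 (edgeR, adjusted p = 1). In TENA P15 it had 0.243, 0 and 0 CPM, with a fitted difference of -5.19 ± 2.57 (edgeR, adjusted p = 0.334). In Cdh P15 it ranged from 0 to 19.1 CPM, with a median of 0.0414. The highest value was that of Cdh1739, where pool 4 gave 99.9% of the reads.

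Cd14, the co-receptor for bacterial lipopolysaccharide, marks luminal progenitors and monocytes alike, and by mean over animals it was the most abundant of the 9 genes per length of exon in every population. Single sums differed, and per kilobase Cd14 lay below Gata3 in P15 of Cdh1624, Cdh1654 and TENA2524 and in P17 of TENA2517. In TENA P18 it had 662, 845, 1484, 1038 and 1306 CPM (TENA2462, TENA2483, TENA2517, TENA2524, TENA2560) and 55 of 55 pools held it. P09 was lower in 5 of 5 animals, with 625.5, 752, 1229.5, 574 and 405 CPM, by a fitted -0.59 ± 1.08 (edgeR, adjusted p = 1).

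In the EpCAM-negative cells high Cd14 was found beside Ptprc, and also in pools without it. TENA P05 sums had 60.7, 2673, 1473, 2570 and 88.9 CPM, and TENA P15 sums had 455, 2469 and 0 CPM (TENA2483, TENA2517 and TENA2524). Within TENA P05, the 4 pools that held Ptprc but neither Col1a1 nor Krt8 had 4442 CPM of pooled counts. The 11 pools with Col1a1 alone had 49.7 CPM and the 4 with Krt8 alone had 845 CPM. The 6 pools with none of the 3 markers had 219 CPM, and the 7 with 2 or more had 1574 CPM. The fitted difference of P05 from P18 was 0.55 ± 1.11 (edgeR, adjusted p = 0.928). Without the pools with Ptprc at 10 CPM or more it was -1.77 ± 1.03 (adjusted p = 0.449), so the sign turned round. The level of 1657 CPM in Cdh P05 rested on pool 5, which held 97% of the reads, and without it the level was 31.6 CPM before TMM scaling.

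Cdh P15 differed between its animals in Cd14. The sums were 1.63 CPM in Cdh1624, 4.30 in Cdh1654 and 832 in Cdh1739, against 133, 457 and 759 CPM in P18 of these animals and 1419 and 1826 in Cdh1725 and Cdh1803. In Cdh1739 the gene was held by 5 of 6 pools, all without Krt8, Ptprc or Col1a1 at 10 CPM. The fitted difference was -5.03 ± 2.21 (edgeR, unadjusted p = 0.0301, adjusted p = 1, range over alternatives -6.58 to -1.72), which DESeq2 called with an adjusted p of 0.00128. The difference between the lines in this contrast was -4.69 ± 2.51 (edgeR interaction, Cdh minus TENA, adjusted p = 0.778).

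**Figure D2:**
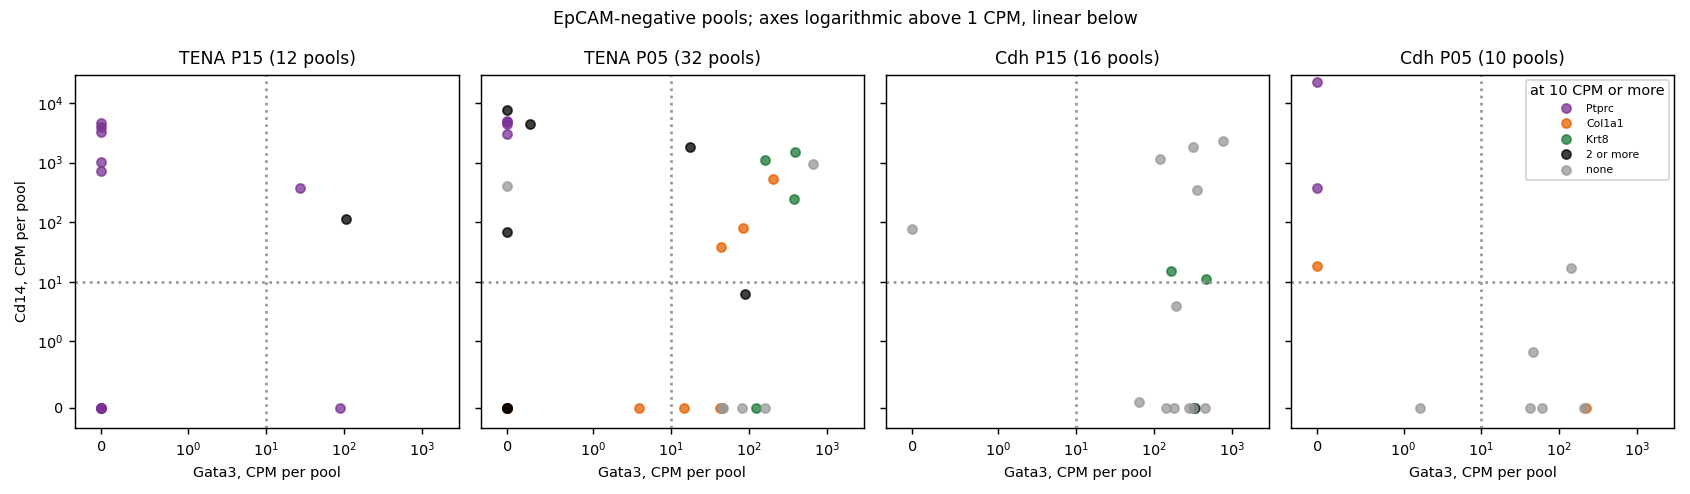
Cd14 against Gata3 in each EpCAM-negative pool (CPM per pool, both axes logarithmic above 1 and linear below), coloured by which of Ptprc, Col1a1 and Krt8 the pool held at 10 CPM or more. The pools of TENA P05 and Cdh P05 with Ptprc alone hold Cd14 and lie at 0 for Gata3, and 15 of 16 Cdh P15 pools lie above 10 CPM of Gata3. Of the 11 TENA P15 pools with Ptprc alone, 6 hold Cd14 and 2 hold Gata3 at 10 CPM or more.

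Gata3, needed for luminal identity, was present in Cdh P15 at levels within the range of P18, unlike Elf5. It averaged 232 ± 53.3 CPM in Cdh P15, with 176, 282 and 238 CPM in Cdh1624, Cdh1654 and Cdh1739, against 80.1, 463 and 174 CPM in P18 of the same animals and 263 and 195 in Cdh1725 and Cdh1803. The 3 sums lie inside the range of P18. Of the Cdh P15 pools, 93.8% held it at 10 CPM or more (exact interval 69.8 to 99.8%), against 100% of Cdh P18 pools. The fitted difference was 0.30 ± 1.10 (edgeR, adjusted p = 1), and it ranged from -0.13 to 0.69 over the alternatives.

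In TENA P15 Gata3 was lower, at 26.6, 4.88 and 73.8 CPM (TENA2483, TENA2517 and TENA2524), against 224, 119 and 150 CPM in P18 of these animals and 85.1 and 177 in TENA2462 and TENA2560. The P15 sums lay below all P18 sums, although not without TMM scaling, and 3 of 12 pools held the gene. The fitted difference was -2.35 ± 1.09 (edgeR, unadjusted p = 0.039, adjusted p = 0.297). The difference between the lines was 2.65 ± 1.52 (edgeR interaction, Cdh minus TENA, adjusted p = 0.825). In TENA P05 Gata3 had 50.4, 116, 132, 82.7 and 64.5 CPM. There it was at 0 in pooled counts of the 4 pools with Ptprc alone and at 245 CPM in the 4 pools with Krt8 alone, 191 CPM in the 6 pools with none of the 3 markers and 36.9 CPM in the 11 with Col1a1 alone.

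Gata3 was held by every pool of P22, P09, P17 and P18, by 92.3% of P16 pools and by 60% of P10 pools, with 0 CPM in P10 of TENA2517. It averaged 129 ± 34.3, 153 ± 29.5, 84.9 ± 15.8 and 151 ± 53.5 CPM in P22, P09, P17 and P18 of TENA animals (SD, n = 5, 5, 3 and 5). Its locus overlaps Gm13256 and 4930412O13Rik on the opposite strand and 9230102O04Rik on the same strand. Over the 55 TENA P18 pools, after removal of animal means, Gm13256 had the pattern most like Gata3 (Pearson r = 0.9), and it did so over the 43 sums (r = 0.867). Whether counting used the strand is not given in the sources used here, so reads of the pair cannot be told apart.

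**Figure D3:**
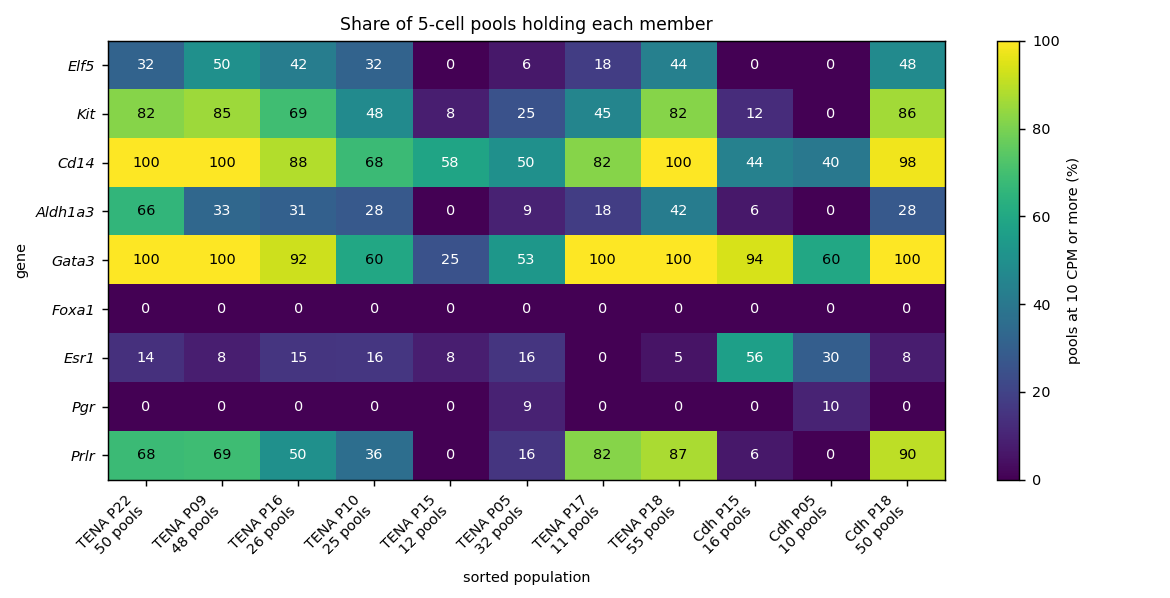
Percent of 5-cell pools with each gene at 10 CPM or more in each population, with the number of pools under the name and the value in each cell. Cd14 and Gata3 reach 100% in P22, P09 and TENA P18 and 68% and 60% in P10, and Esr1 reaches 56% in Cdh P15, against 8% in Cdh P18.

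Of the hormone-sensing genes, Foxa1, the pioneer factor of the estrogen receptor, was close to absent. It reached 10 CPM in 0 of 335 pools. Its reads numbered 5 in P22, 47 in TENA P18 and 88 in Cdh P18, and 0 in every other population. Within TENA P18 they came from 3 pools, and within Cdh P18 from 3.

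Esr1, the estrogen receptor, was low in the epithelial populations and highest in Cdh P15. It had 10.9, 26.0 and 22.6 CPM in Cdh P15 of Cdh1624, Cdh1654 and Cdh1739, against 0, 2.21 and 3.85 CPM in P18 of the same animals and 2.67 and 6.25 in Cdh1725 and Cdh1803. The groups did not overlap, as for 4.07% of the genes tested, and 9 of 16 pools of Cdh P15 held the gene against 4 of 50 of Cdh P18. The fitted difference was 4.03 ± 2.18 (edgeR, adjusted p = 1, DESeq2 0.107), with a range of 2.71 to 5.08 over the alternatives. The difference between the lines was 3.58 ± 2.94 (edgeR interaction, Cdh minus TENA, adjusted p = 1). It ranged from 1.76 to 14.38 over the alternatives, the highest without TENA2483, which held all Esr1 reads of TENA P15.

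In TENA animals Esr1 averaged 8.65 ± 7.81 CPM in P05, 9.19 ± 9.93 in P10 and 4.53 ± 7.84 in P15, against 2.47 ± 2.00 in P18. Its level in P15 came from TENA2483 alone, where pool 3 gave 99.7% of the reads. P17 lay below P18 with 0.860, 0 and 0.211 CPM (TENA2517, TENA2524 and TENA2560), against 1.79, 6.00 and 1.66 CPM in P18 of the same animals. These sums did not overlap those of P18 after TMM scaling, as for 7.31% of the genes tested, but did so without it, and the fitted difference was -2.95 ± 2.01 (edgeR, adjusted p = 1).

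Pgr, the progesterone receptor and an estrogen receptor target, had 0 to 34 reads in each TENA population but P05, and 1 read in Cdh P18. It was found in EpCAM-negative cells, with 2.69 CPM in TENA2483 and 12.7 in TENA2560 in P05 and 0 in the other 3 animals, and with 2.94 CPM in P15 of Cdh1624. TENA2560 also held the 34 reads of TENA P18, all in 1 pool, at 0.378 CPM. The fitted difference of TENA P05 from P18 was 5.75 ± 2.13 (edgeR, unadjusted p = 0.0139, adjusted p = 0.231). In P05 of TENA2560, 83.3% of the reads came from pool 4, which held Col1a1 at 1361 CPM. In Cdh P05, 99.7% of the 584 reads came from pool 8, which held Col1a1 at 6272 CPM. Col1a1 was at 0 in the pool of TENA2483 with all its Pgr reads.

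**Figure D4:**
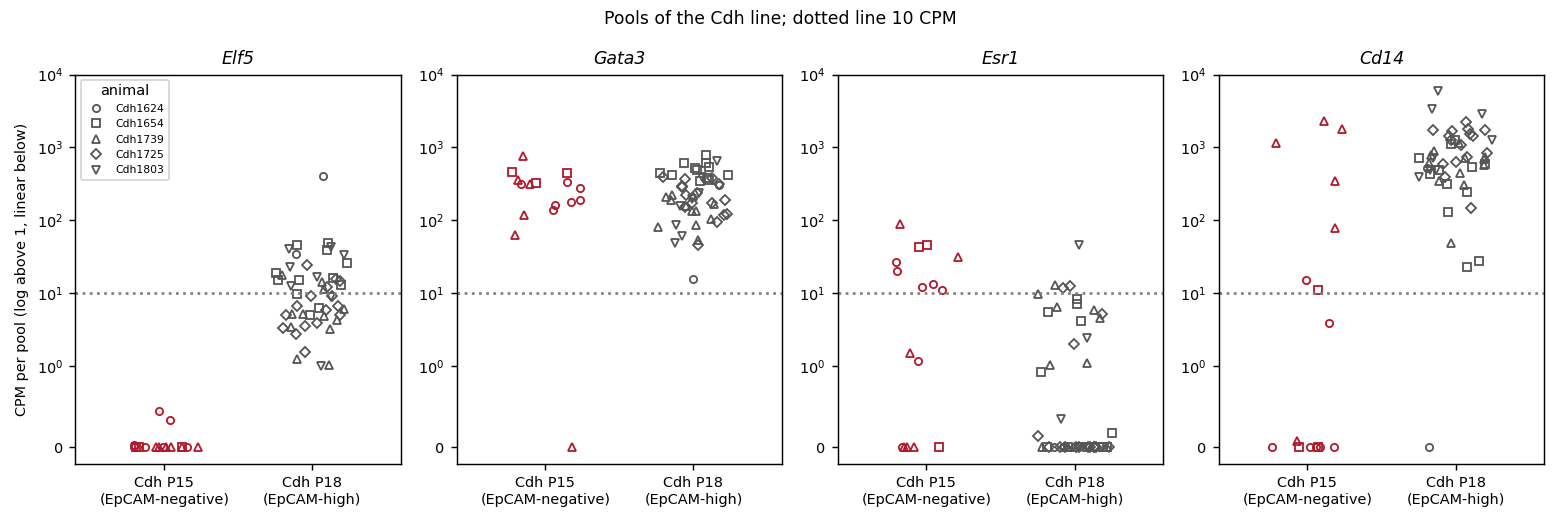
Elf5, Gata3, Esr1 and Cd14 in each pool of Cdh P15 (left, red) and Cdh P18 (right, grey), in CPM per pool, with a symbol for each animal and a dotted line at 10 CPM. Elf5 is below 0.5 CPM in all 16 Cdh P15 pools, Gata3 is above 10 CPM in 15 of them, and Cd14 above 50 CPM is seen in pools of Cdh1739.

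Prlr, the prolactin receptor that signals through JAK2 and STAT5, was held by 87.3% of TENA P18 pools and 90% of Cdh P18 pools. P22 was lower than P18 in 5 of 5 animals, with 11.0, 18.1, 19.2, 19.8 and 34.5 CPM in P22 against 16.4, 44.3, 36.9, 22.0 and 39.0 CPM in P18, by a fitted -0.68 ± 1.25 (edgeR, adjusted p = 1). The groups overlapped. P10 was lower than P16 in 4 of 4 animals (15.6, 20.9, 0.130 and 60.3 CPM in P10 against 39.9, 21.9, 14.4 and 63.9 CPM in P16), by -0.69 ± 1.41 (edgeR, adjusted p = 1).

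In TENA P15 Prlr had 0.589, 0 and 0 CPM, below every P18 animal, with a fitted difference of -6.99 ± 2.15 (edgeR, unadjusted p = 0.00294, adjusted p = 0.114). Without the animal block its adjusted p was 0.0464, and DESeq2 gave 7.57e-05. Cdh P15 had 3.05, 10.9 and 0 CPM, against 0, 69.0 and 43.2 CPM in P18 of these animals and 42.0 and 40.7 in Cdh1725 and Cdh1803. Prlr overlaps Gm21973 on the same strand, and over TENA P18 pools that gene was the one most like it (r = 0.762).

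Per kilobase of exon, the order in TENA P18 was Cd14 (616 CPM per kb), Gata3 (38.0), Aldh1a3 (8.96), Kit (5.92), Prlr (2.07), Elf5 (1.81), Esr1 (0.181), Foxa1 (0.0374) and Pgr (0.00884). Aldh1a3, with an SD of 14.3 over animals, could not be set apart from Kit, and Prlr and Elf5 (SDs of 0.778 and 0.625) lay within each other's spread. In Cdh P15 the order was Cd14 (161), Gata3 (58.4), Esr1 (1.45), Aldh1a3 (1.38), Prlr (0.304), Kit (0.149), Pgr (0.115), Elf5 (0.0047) and Foxa1 (0), with an SD of 276 for Cd14. The SDs of Aldh1a3 (2.38), Prlr (0.367), Kit (0.180) and Pgr (0.199) exceeded their means over 3 animals. These 4 genes could therefore not be ordered, and Aldh1a3 could not be set apart from Esr1. All Pgr reads came from pool 5 of Cdh1624.

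Counts of calls over the 9 genes were read against all genes. In TENA P15 against P18, 0 of 9 were called and 0.729% of the 33768 genes tested were. The median of the 9 fitted log2 changes was -3.37 there, beside -0.61 for all genes tested. That median is the fitted value of Foxa1 (-3.37 ± 3.61, edgeR), which had 0 reads in P15 and depends on the prior count. A bound from its pooled counts, for counting error only, gives a log2 ratio of -0.99. The 5 genes below every P18 sum (Elf5, Kit, Aldh1a3, Gata3 and Prlr) compare with 17.2% of all genes that were lower without overlap. In TENA P05, 0 of 9 were called, against 0.545% of all genes (0.352% higher, 0.192% lower). Without TMM scaling, Prlr in TENA P05 and Cd14 in P16 also lay below every P18 sum. With it, 5.82% and 4.47% of all genes were lower without overlap in those comparisons. In P16 and in P10 against P18 the share called was 0.00296% each, in the difference between the lines 0.00888%, and in P22, P09 and P17 against P18, P10 against P16, Cdh P15 against P18 and P18 of Cdh against TENA animals it was 0%. In Cdh P15 the median over the 9 genes was -3.32, against 0.00 for all genes. That median is the fitted value of Aldh1a3 (-3.32 ± 3.32, edgeR).

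Other genes of the same pathways were counted from lists. In TENA P15, 4 of 15 other luminal progenitor genes were called, all lower: Folr1, a folate receptor (-15.75 ± 3.01, adjusted p = 0.0115), Ehf, an ETS factor of epithelia (-9.26 ± 1.25, 0.000248), Lcn2, an iron-binding secreted protein (-7.66 ± 1.51, 0.0128), and Hey1, a Notch target (-10.75 ± 2.51, 0.0366), all from edgeR. Of 8 genes of prolactin and STAT5 signalling, 1 was called, the feedback inhibitor Socs2 (-8.13 ± 1.78, adjusted p = 0.0274 by edgeR). Of 12 other hormone-sensing genes, 1 was called, Wnt4, a ligand downstream of progesterone (10.18 ± 2.19, adjusted p = 0.0258 by edgeR). Wnt4 had 9.63, 1.56 and 0 CPM in P15 of TENA2483, TENA2517 and TENA2524, and 0.0363 CPM or less in the P18 sums. Fitted values of genes at or near 0 in a group depend on the prior count. The medians of the fitted log2 changes were -5.85, -0.41 and -1.996 in these lists, beside -0.61 for all genes tested, of which 0.53% were called lower and 0.198% higher. Beside them, 8 of 10 luminal epithelium markers were called lower in TENA P15 (Cdh1, Cldn3, Cldn4, Cldn7, Epcam, Krt8, Plet1 and Spint2) and 4 of 10 in TENA P05 (Cldn4, Cldn7, Krt8 and Plet1). Called higher in TENA P15 were 3 of 12 macrophage and pan-leukocyte markers (Fcer1g, Laptm5 and Mrc1), 2 of 10 fibroblast markers (Islr and Lum) and 1 of 8 basal markers (Acta2). Called higher in TENA P05 were 2 of 12 (Fcer1g and Itgam), 5 of 10 (Col1a1, Col1a2, Col3a1, Islr and Lum) and 1 of 8 (Acta2) of the same lists. Of the first 3 lists, 0 genes were called in any other comparison by edgeR.

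In Cdh P15 the markers of the sorted cells stood as follows. The 10 luminal epithelium markers summed to 142 to 271 CPM, against 2836 to 35360 CPM in Cdh P18, and the 12 macrophage and pan-leukocyte markers to 6.26 to 22.5 CPM, against 9.32 to 244 CPM in Cdh P18. The 8 basal markers summed to 950 to 1067 CPM, against 22.8 to 222 CPM in Cdh P18. In that list Krt14 and Krt17 were at 0 in all 3 sums of Cdh P15, while Acta2, the smooth muscle actin, had 655, 710 and 550 CPM in Cdh1624, Cdh1654 and Cdh1739. The 10 fibroblast markers summed to 50.35 to 154 CPM, against 0.0727 to 13.5 CPM in Cdh P18. Islr gave 119, 65.1 and 50.2 CPM of this in the Cdh P15 animals. The part of other cell types in the levels of Gata3 and Esr1 was not tested.

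The genes with the most similar pattern over the 43 sums were, by Pearson r of log2(CPM + 1), Ptges2 for Elf5 (0.825), St14 for Kit (0.838), Gm5552 for Cd14 (0.813), Fbln2 for Esr1 (0.72) and Fxyd3 for Prlr (0.86). Sums of one animal share a tumour and sums of one population share a gate, so these values are descriptions. For Foxa1 (Prss27, 0.869) and Pgr (Slc22a8, 0.96) they rest on few sums with reads. Within TENA P18, the 21 pairs among the 7 genes with enough reads had r between -0.067 and 0.419 with a median of 0.116, and the points share depth and tumour. The most alike pair there was Kit and Aldh1a3. In other populations the same pair had r = 0.116 (P22), 0.011 (P09) and -0.124 (Cdh P18). Over the 55 TENA P18 pools the nearest genes were Rnf7 for Kit (0.677) and Tagln2 for Aldh1a3 (0.659).

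P18 cells of the lines were compared directly, although the lane named in the labels nearly repeats the line: all Cdh animals and TENA2524 share lane 2. Within lane 2, Gata3 averaged 235 CPM in the 5 Cdh animals and 150 CPM in TENA2524. Prlr averaged 39.0 CPM in the Cdh animals and had 22.0 CPM in TENA2524, and Cd14 919 CPM in the Cdh animals and 1038 CPM in TENA2524. With 1 TENA animal in the lane no test was run within it, and lane and line cannot be told apart. Over all 10 animals 0 of 7 genes tested were called, and Foxa1 and Pgr did not pass the filter on low counts.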

How the data were processed

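Tumour cells were sorted by reporter colour and EpCAM into pools of 5 cells and sequenced by Smart-seq2. The authors deposited raw read counts per gene, which per the submitters' processing notes came from STAR, SAMtools, featureCounts and Subread on mm10. The sources used here give neither versions nor strand settings. Of 504 wells, 335 libraries passed the quality call in the labels. They were summed per animal and population, so the animal is the replicate (43 sums, 10 animals). Sums were tested with edgeR 4.0.16 (quasi-likelihood, TMM, filterByExpr, animal block, Benjamini-Hochberg over all genes), with 33768 genes in the joint fit and 17878 in P18 of Cdh against TENA animals, unblocked. The block rests on shared animals: deviations of the same animal in other populations had a median r of 0.0726 (105 pairs), and of other animals -0.0134 (413 pairs). The fit was also run on simulated counts with the same dispersion for every gene and no animal effect. Those settings differ from these sums, so that run does not give the power or error rate here. DESeq2 1.42.0, other filters and left-out animals were alternatives. Intervals on pools are exact at 95% and cover counting error only. CPM per pool, and pooled CPM, carry no TMM factor. Members and lists were chosen with earlier results of these data known. Every member is named. Lists are given by counts, with values only for called genes or markers that set the level of another cell type. Genes of similar pattern are among the nearest 3 by Pearson r, at 0.6 or more over sums and 0.5 or more over pools. Failed libraries and empty wells entered no comparison. Gene positions are from GENCODE M21 (GRCm38), which held all 55450 gene IDs.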

Additional observations from a re-analysis of the deposited data

Results flagged for a closer look

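A single animal stood far from the rest of its group in 13 of 58 groups of 4 or 5 animals. The rule's chance rate of about 1 group in 20 does not apply here, so this count was not read against chance. A group with reads in a single animal is always flagged, and groups that share a gene and an animal are not independent. Aldh1a3 accounts for 4 of the 13 groups. It had 288.3, 264.0 and 158.8 CPM in P05, P10 and P18 of TENA2462. In P18 of Cdh1725 it had 72.28 CPM. Elf5 stood at 105.7 CPM in P18 of Cdh1624, a sum of 2 libraries, where the next animal had 19.27 CPM. Esr1 reached 5.998 CPM in P18 of TENA2524, and Prlr reached 62.39 CPM in P09 of TENA2560.

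Pgr was flagged in 5 groups, with 12.71 CPM in P05 and 0.3779 CPM in P18 of TENA2560, 0.02604 CPM in P10 of TENA2524, 0.0253 CPM in P22 of TENA2517 and 0.01741 CPM in P18 of Cdh1654. Foxa1 had 0.06916 CPM in P22 of TENA2524. The groups of Foxa1 and of Pgr outside P05 are at 0 in their other animals, so a few reads set these flags.

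The 152 libraries that failed quality control, used in no comparison, held 67285 reads of the 9 genes, against 0 reads in the 17 empty wells. Gata3 was found in 54 of them, with 80.65 CPM of pooled counts, and Elf5 in 34. Foxa1 had 432 reads in 7 failed libraries (2.811 CPM) and Pgr had 448 reads in 4 (2.915 CPM).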

How the results depend on the processing

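The count of members called was 0 in each of the 11 comparisons, and 189 of 193 alternative counts were 0 as well. DESeq2 called 3 members in TENA P15 (Elf5, Kit, Prlr), 3 in Cdh P15 (Elf5, Kit, Cd14) and 1 in the difference between the lines (Cd14, adjusted p = 0.0244). In that difference DESeq2 called 3338 of 28530 genes. Without the replicate block, which pairs sums of the same animal, edgeR called 2 members in TENA P15 (Elf5 and Prlr), and the block changed no other count of members called. Of the 23 fold changes, 5 alternative values turned sign: Cd14 in TENA P05 was -0.61 with the groups of the comparison alone and -1.77 without libraries with Ptprc, and Gata3 in Cdh P15 was -0.016 without the replicate block, -0.002 with at least 3 libraries per sum and -0.129 to 0.685 over left-out animals. The cause was not tested. Without TMM factors, Cd14 in P16 and Prlr in TENA P05 lay below all P18 sums, and Esr1 in P17 (0 genes then) no longer did. Over all genes, calls in TENA P15 numbered 246, with 4880 of 31149 by DESeq2, 1012 without the block, 462 with libraries weighted equally and 122 with the groups alone. Left-out animals gave 42 (TENA2524) to 409 (Cdh1624), with 61, 76 and 127 without TENA2462, TENA2560 and TENA2517. In TENA P05 calls numbered 184, with 4564 by DESeq2, 510 without the block, 647 with at least 3 libraries per sum, 2 with the groups alone, and 1 to 292 over left-out animals. In Cdh P15 they numbered 0, with 1893 of 24602 by DESeq2 and 22 without the block. Thinning pools to 300000 counts moved 0 of 99 pool shares beyond their intervals. The groups alone could not be fitted for P10 against P16, and leaving out Ptprc libraries gave no value for TENA P15. P18 of Cdh against TENA animals has no block to remove. Few EpCAM-negative pools (12 and 16 in P15) limit the precision there.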
